A study of Homo sapiens with 9 samples.

Results

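The effects of 2 small interfering RNAs (siRNAs) that target the same gene, KMT2C, were compared directly with each other: the 3 libraries of KMT2C siRNA 1 (labelled siKMT2C#1) were set against the 3 libraries of KMT2C siRNA 2 (labelled siKMT2C#2), across all genes of the deposited table. These are 6 of the 9 libraries of the series. The libraries were chosen by their labels, through the table's columns for each siRNA. The question the comparison answers is which groups of genes separate 2 siRNAs that left the KMT2C transcript at a similar level.

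The study measured RNA from VCaP cells, an established human prostate cancer cell line, 4 days after transfection, as the sample labels state. The series' design text calls the RNA retinal, and the sample labels were followed. VCaP cells carry a TMPRSS2-ERG gene fusion, and all 9 libraries come from this 1 line, grown in DMEM medium with fetal bovine serum. The remaining 3 libraries received a control siRNA. They are used here as a reference level, for the estimate of spread, in the filter on level and in choosing some of the named genes. The labels number the libraries of a group 1 to 3 without saying whether these were separate cultures, so the p-values reflect only how far these libraries vary, and that variation may be technical. The labels name the siRNAs but give no sequence for them.

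KMT2C (also called MLL3) is a histone methyltransferase that places monomethyl marks on lysine 4 of histone H3, mainly at enhancers, within a complex that it shares in part with its relative KMT2D. An siRNA works as a short duplex, of which 1 strand guides an Argonaute protein to a complementary messenger RNA, which is then cut. Different siRNAs against 1 gene share that target but differ in their own sequence.

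Levels are given as FPKM (fragments per kilobase of transcript, scaled to the library's size), the deposited per-length unit, in replicate order 1, 2, 3. A log2 difference is the fitted log2 fold change of siRNA 1 over siRNA 2 from edgeR's quasi-likelihood test on the deposited counts, with its standard error (SE). A positive value means higher with siRNA 1 and a negative value higher with siRNA 2. A gene is called when its p-value, adjusted by the Benjamini-Hochberg method over all 12830 genes tested, is under 0.05. Genes tested had at least 1 FPKM in at least 3 of the 9 libraries.

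Totals ran from 58462215 to 70726213 counts per library, and between 24406 and 25318 genes had counts. Pearson correlations of log2 levels across genes were 0.966 to 0.976 between libraries of 1 group and 0.926 to 0.933 between a siRNA 1 and a siRNA 2 library. Mitochondrially encoded transcripts took 9.02% ± 0.70 of the counts with siRNA 1, 12.05% ± 0.12 with siRNA 2 and 10.58% ± 0.50 with control siRNA (SD, n = 3 each). Cytosolic ribosomal protein transcripts took 10.61% ± 0.96, 8.92% ± 0.07 and 7.71% ± 0.11 in the same order. For both shares the 2 KMT2C siRNAs did not overlap, which gives an exact 2-sided permutation p of 0.1, the smallest that 3 libraries against 3 can give.

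The targeted gene was low with both siRNAs. KMT2C (chr7:152134922-152436003, GRCh38, minus strand) stood at 1.54, 1.8 and 2.28 FPKM with siRNA 1, at 1.72, 1.64 and 1.73 FPKM with siRNA 2 and at 13.7, 12.1 and 12.9 FPKM with control siRNA. The 2 knockdown groups overlapped and all 6 libraries lay far below the controls. Their log2 difference was 0.17 ± 0.12, with a 95% interval from -0.11 to 0.45 (edgeR adjusted p = 0.309), and the exact 2-sided permutation test of its log2 counts, scaled to library size, gave p = 0.5. No difference was called, and the interval does not show that the levels were equal.

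Genes of the histone H3 lysine 4 methyltransferase complexes, which include partners of KMT2C, were called in both directions, at a share near that of all genes. The list also holds members of the KMT2A and KMT2B complexes. Of the 18 tested members of the histone H3 lysine 4 methyltransferase complexes, 4 were higher with siRNA 1 and 4 with siRNA 2, or 44.4% called against 39.5% of all genes tested, with a median log2 difference of -0.02 against 0.003 over all genes. NCOA6, the nuclear receptor coactivator found in the KMT2C and KMT2D complexes, read 10.4, 12.4 and 13.7 FPKM with siRNA 1 and 7.0, 6.91 and 7.09 FPKM with siRNA 2, against 16.1, 15.9 and 17.1 FPKM with control siRNA. Every siRNA 1 library exceeded every siRNA 2 library, by a log2 difference of 0.83 ± 0.09 (edgeR adjusted p = 0.000168). MEN1, the menin scaffold of the KMT2A and KMT2B complexes, differed by 0.73 ± 0.08 (adjusted p = 0.000234). KMT2D itself stood at 11, 13.5 and 13.6 FPKM with siRNA 1 and 8.43, 8.63 and 8.73 FPKM with siRNA 2, where control siRNA gave 12.8, 11.9 and 12.3 FPKM. The siRNA 1 and control libraries overlapped and the siRNA 2 libraries lay below both. Its log2 difference was 0.59 ± 0.08 (edgeR adjusted p = 0.000481). DPY30, a core subunit, was the other gene higher with siRNA 1, by 0.33 ± 0.08.

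KDM6A, the H3 lysine 27 demethylase of the same complex, went the other way, at 1.54, 1.94 and 1.83 FPKM with siRNA 1 and 3.05, 3.13 and 2.82 FPKM with siRNA 2, a log2 difference of -0.73 ± 0.09 (edgeR adjusted p = 0.000247). KMT2B differed by -0.46 ± 0.1 (edgeR adjusted p = 0.00563). The calls of KMT2A (-0.46 ± 0.13, edgeR adjusted p = 0.0237) and of ASH2L (-0.22 ± 0.07, edgeR adjusted p = 0.0264) were weaker. KMT2A lost its call when any 1 of the siRNA 2 libraries was left out (adjusted p = 0.0521 to 0.0651), and ASH2L when siRNA 1 replicate 3, siRNA 2 replicate 2 or siRNA 2 replicate 3 was left out (adjusted p = 0.0748 to 0.0996). The count higher with siRNA 2 was 2 without the filter on low values, in a fit of the 6 libraries alone, or without siRNA 2 replicate 2 or siRNA 2 replicate 3. Against a 1.5-fold change the counts were 1 and 0.

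Across all genes, 5068 of 12830 were called (39.5%), of which 2646 were higher with siRNA 1 (20.6% of those tested) and 2422 higher with siRNA 2 (18.9%). For 6714 genes (52.3%) the FPKM of the 2 groups did not overlap. A difference of at least 2-fold was reached by 707 called genes higher with siRNA 1 (5.51%) and 451 higher with siRNA 2 (3.52%). For comparison, siRNA 1 against control siRNA called 5349 genes (41.7%), of which 2724 were higher and 2625 lower, and siRNA 2 against control siRNA called 6328 (49.3%), of which 3128 were higher and 3200 lower; these 2 comparisons use the same 3 control libraries. Among the 707 genes, the control mean lay nearer to siRNA 1 for 592 and nearer to siRNA 2 for 115. Among the 451, it lay nearer to siRNA 1 for 281 and nearer to siRNA 2 for 170. Of protein-coding genes 4623 of 10713 (43.2%) were called and of long noncoding RNAs 223 of 757 (29.5%). The share called was 34.5% in the lowest and 44.2% in the highest of 5 equal groups of genes ranked by level, and class and level were not separated.

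**Figure D1:**
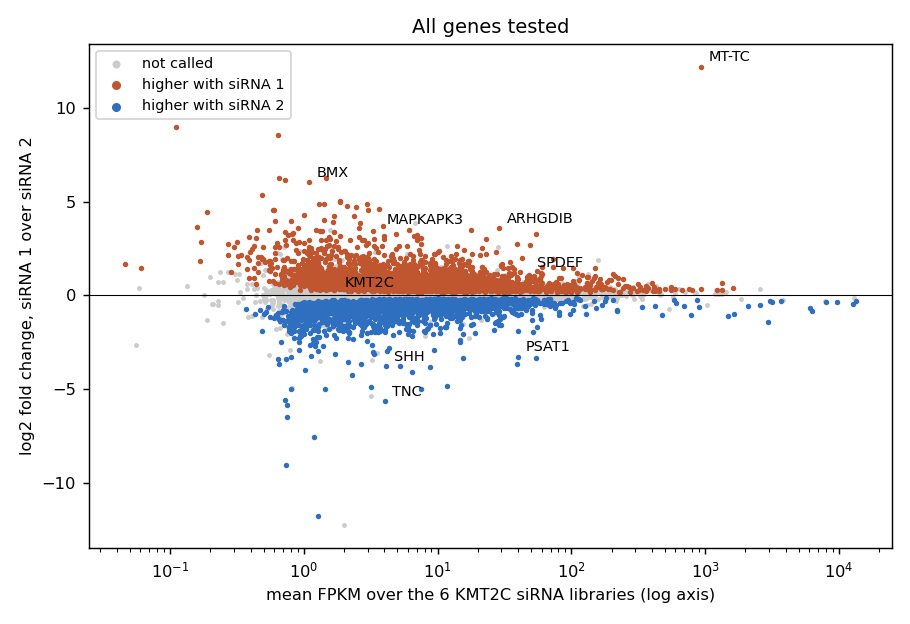
Every gene tested, by its mean FPKM over the 6 KMT2C siRNA libraries (horizontal, log axis) and its log2 fold change of siRNA 1 over siRNA 2 (vertical); colours mark the 2646 genes called higher with siRNA 1 and the 2422 called higher with siRNA 2. KMT2C lies close to 0, and MT-TC, a mitochondrial transfer RNA, stands far above all other abundant genes.

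Among called genes that averaged at least 2 FPKM in the higher group, those with the largest log2 differences in favour of siRNA 1 were listed. Nearly all were close to 0 with siRNA 2, which the ranking itself favours, since it set a minimum level only in the higher group. BMX, GUCA2A and TUBB2B also needed the siRNA 1 libraries to pass the filter on level, since fewer than 3 other libraries reached 1 FPKM. BMX (chrX:15464246-15556529), a TEC family tyrosine kinase, read 2.14, 2.32 and 2.06 FPKM with siRNA 1 and 0.0348, 0.0256 and 0.0328 FPKM with siRNA 2, against 0.989, 0.775 and 1.24 FPKM with control siRNA. The siRNA 1 libraries lay above the controls and the siRNA 2 libraries below, and the log2 difference was 6.04 ± 0.26 (edgeR adjusted p = 1.9e-06). APOH, a plasma apolipoprotein, fell from 6.48, 6.66 and 9.74 FPKM with control siRNA to 3.84, 2.45 and 4.63 FPKM with siRNA 1 and 0.111, 0.13 and 0.0988 FPKM with siRNA 2, a log2 difference of 4.96 ± 0.33 between the siRNAs. ERP27, an endoplasmic reticulum protein of the disulfide isomerase family, stood at 5.17, 6.09 and 5.85 FPKM with siRNA 1, just below the controls (8.23, 7.61 and 6.5 FPKM), and at 0.185, 0.309 and 0.0823 FPKM with siRNA 2 (4.88 ± 0.37 log2). The signalling adaptor PIK3AP1 (4.21 ± 0.19 log2), the phospholipase PLA2G4F (4.04 ± 0.2) and the noncoding RNA LINC02387 (4.53 ± 0.53) also stood near 0 with siRNA 2 alone.

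GUCA2A, the precursor of the gut peptide guanylin, was among them too (4.76 ± 0.77 log2). TUBB2B, a beta-tubulin, was uneven within its groups: 5.18, 1.64 and 1.44 FPKM with siRNA 1 and 0.833, 5.08 and 6.84 FPKM with control siRNA, while all 3 siRNA 2 libraries read 0.112, 0.107 and 0.0598 FPKM. Its log2 difference of 4.88 ± 0.91 (edgeR adjusted p = 0.00309) therefore carries a wide error.

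Some genes were called against the shared controls in opposite directions, higher with siRNA 1 and lower with siRNA 2. MAPKAPK3 (chr3:50611520-50649289), a kinase activated by p38 MAP kinase, read 30, 35.3 and 32.9 FPKM with siRNA 1, 13.6, 12.7 and 12.9 FPKM with control siRNA and 3.2, 2.53 and 3.18 FPKM with siRNA 2. The 3 groups did not overlap. Against control the log2 change was 1.3 with siRNA 1 and -2.19 with siRNA 2, and the direct log2 difference was 3.49 ± 0.11 (edgeR adjusted p = 7.78e-07). ARHGDIB, a GTPase regulator that is on the list of genes associated with ERG, gave 41.9, 63.8 and 54.2 FPKM, 18, 19.9 and 17.5 FPKM and 4.87, 3.67 and 5.22 FPKM in the same order, a difference of 3.56 ± 0.19 between the siRNAs (adjusted p = 4.04e-06). MYBPC1, a muscle myosin-binding protein, stood at 7.09, 7.49 and 7.3 FPKM with siRNA 1 and 0.63, 0.56 and 0.505 FPKM with siRNA 2, with controls at 3.15, 3.69 and 2.71 FPKM between them. The secreted lipid-mobilizing glycoprotein AZGP1 (3.56 ± 0.35 log2) and the transporter SLC22A10 (3.91 ± 0.32) had the same pattern, as had KRT14, described with the keratins. The reverse pattern, lower than control with siRNA 1 and higher with siRNA 2, held for MAN1A1, a Golgi mannosidase (-2.69 ± 0.27 log2), and for SCHLAP1, a long noncoding RNA of prostate cancer (0.349, 0.528 and 0.721 FPKM with siRNA 1, 2.22, 2.06 and 1.85 FPKM with siRNA 2 and 1.01, 0.971 and 1.08 FPKM with control siRNA; -1.91 ± 0.26 log2).

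The largest differences in favour of siRNA 2, ranked in the same way, were mostly in genes that stood near 0 in the other 6 libraries. Low values with siRNA 1 largely follow from this ranking. Moreover, TNC, DLX5, PAX1, TGFB2, CEACAM6, FAHD2P1 and ABCF2-H2BE1 passed the filter on level only through the siRNA 2 libraries. The same held for MAN1A1, named above. IGFBP5 also needed the siRNA 2 libraries, since fewer than 3 others reached 1 FPKM. TNC (chr9:115019575-115118257), the extracellular matrix protein tenascin C, read 7.01, 5.94 and 10.9 FPKM with siRNA 2, 0.158, 0.134 and 0.167 FPKM with siRNA 1 and 0.177, 0.113 and 0.12 FPKM with control siRNA. Only the siRNA 2 libraries stood apart, and the log2 difference was -5.66 ± 0.29 (edgeR adjusted p = 3.98e-06). DLX5, a homeobox transcription factor, stood at 14.7, 17 and 12.4 FPKM with siRNA 2 against 0.439, 0.48 and 0.422 FPKM with siRNA 1 and 0.462, 0.625 and 0.408 FPKM with control siRNA, a difference of -4.99 ± 0.2 (adjusted p = 1.67e-06). PAX1, a paired-box transcription factor, reached 13.5, 11.7 and 11.1 FPKM with siRNA 2, compared with 0.593, 0.935 and 0.525 FPKM with siRNA 1 and 0.185, 0.291 and 0.177 FPKM with control siRNA. All 3 siRNA 1 libraries also lay above the controls, but by far less (1.61 log2 against 5.71 with siRNA 2).

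LUM, the matrix proteoglycan lumican, read 10.2, 7.04 and 12 FPKM with siRNA 2 and 0.817, 0.61 and 0.667 FPKM with siRNA 1. LUM is also a fibroblast marker, and the fibroblast genes DCN and COL1A2 averaged 0.02 and 0.03 FPKM over the 9 libraries. IGFBP5, which binds insulin-like growth factors, gave 3.88, 4.72 and 4.45 FPKM with siRNA 2 and 0.15, 0.263 and 0.268 FPKM with siRNA 1, on either side of the controls (0.487, 0.376 and 1.08 FPKM). The cell surface adhesion molecule CEACAM6 differed by -3.65 ± 0.54 (edgeR adjusted p = 0.000856). TFF1, a secreted trefoil peptide chosen after its values were seen, stood at 108, 123 and 68.4 FPKM with siRNA 2, at 10.2, 9.44 and 8.81 FPKM with siRNA 1 and at 8.68, 11.2 and 9.14 FPKM with control siRNA, so siRNA 1 and control overlapped while siRNA 2 lay about 10.3-fold above siRNA 1 (-3.36 ± 0.22 log2, edgeR adjusted p = 1.22e-05). TGFB2, a ligand of the TGF-beta family, read 4.31, 4.54 and 3.02 FPKM with siRNA 2 and 0.259, 0.37 and 0.376 FPKM with siRNA 1, against 0.181, 0.177 and 0.149 FPKM with control siRNA.

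Some large values rest on the annotation or on uneven libraries. ABCF2-H2BE1, a readthrough locus whose exons overlap ABCF2, had no counts in the 3 siRNA 1 libraries and 1317 in the 3 siRNA 2 libraries. Against a floor of 3 fragments over the 3 libraries, at an assumed 4 counts per fragment, it was at least 108-fold higher with siRNA 2. RNY3P8, a small pseudogene, had 0 and 72 counts, at least 5.88-fold. FAHD2P1 (-4.98 ± 0.67 log2) is a pseudogene, and reads of its parent gene may be counted there. TOMM6, a subunit of the mitochondrial import pore, was low with siRNA 1 (6.74, 4.3 and 6.01 FPKM) and high with siRNA 2 (76, 73.4 and 69.9 FPKM), but its control libraries read 7.93, 86.1 and 91.2 FPKM. CLDN4, a tight junction claudin, was as uneven, at 2.54, 0.447 and 0.33 FPKM with siRNA 1, 16.4, 16.3 and 16.5 FPKM with siRNA 2 and 58, 0.954 and 8.47 FPKM with control siRNA. Its call (-3.84 ± 1.33, edgeR adjusted p = 0.049) was lost without siRNA 1 replicate 2, siRNA 1 replicate 3, any siRNA 2 library or control replicate 3 (adjusted p = 0.0587 to 0.132).

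Among abundant transcripts that differed at least 2-fold, PRDX5, a peroxiredoxin that removes peroxides, read 366, 278 and 269.8 FPKM with siRNA 1 and 654, 651 and 645 FPKM with siRNA 2. LAMC1, the laminin gamma 1 chain of basement membranes, read 57, 68 and 65.9 FPKM and 134, 140.4 and 122 FPKM. The other way, the phospholipase PLAAT3 stood at 256, 181 and 163 FPKM with siRNA 1 and 112, 88.8 and 99.7 FPKM with siRNA 2. CAPNS1, the small calpain subunit, was spread widely (104, 195 and 187 against 67.9, 67.5 and 102 FPKM) and lost its call without siRNA 1 replicate 2, siRNA 1 replicate 3, siRNA 2 replicate 1 or siRNA 2 replicate 2 (adjusted p = 0.0622 to 0.0726). RPL23AP42, a pseudogene of the ribosomal protein gene RPL23A, differed by 1.48 ± 0.29, and its reads cannot be told from those of close copies. TRGV9, a T cell receptor gamma segment, differed by -1.0 ± 0.1.

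**Figure D2:**
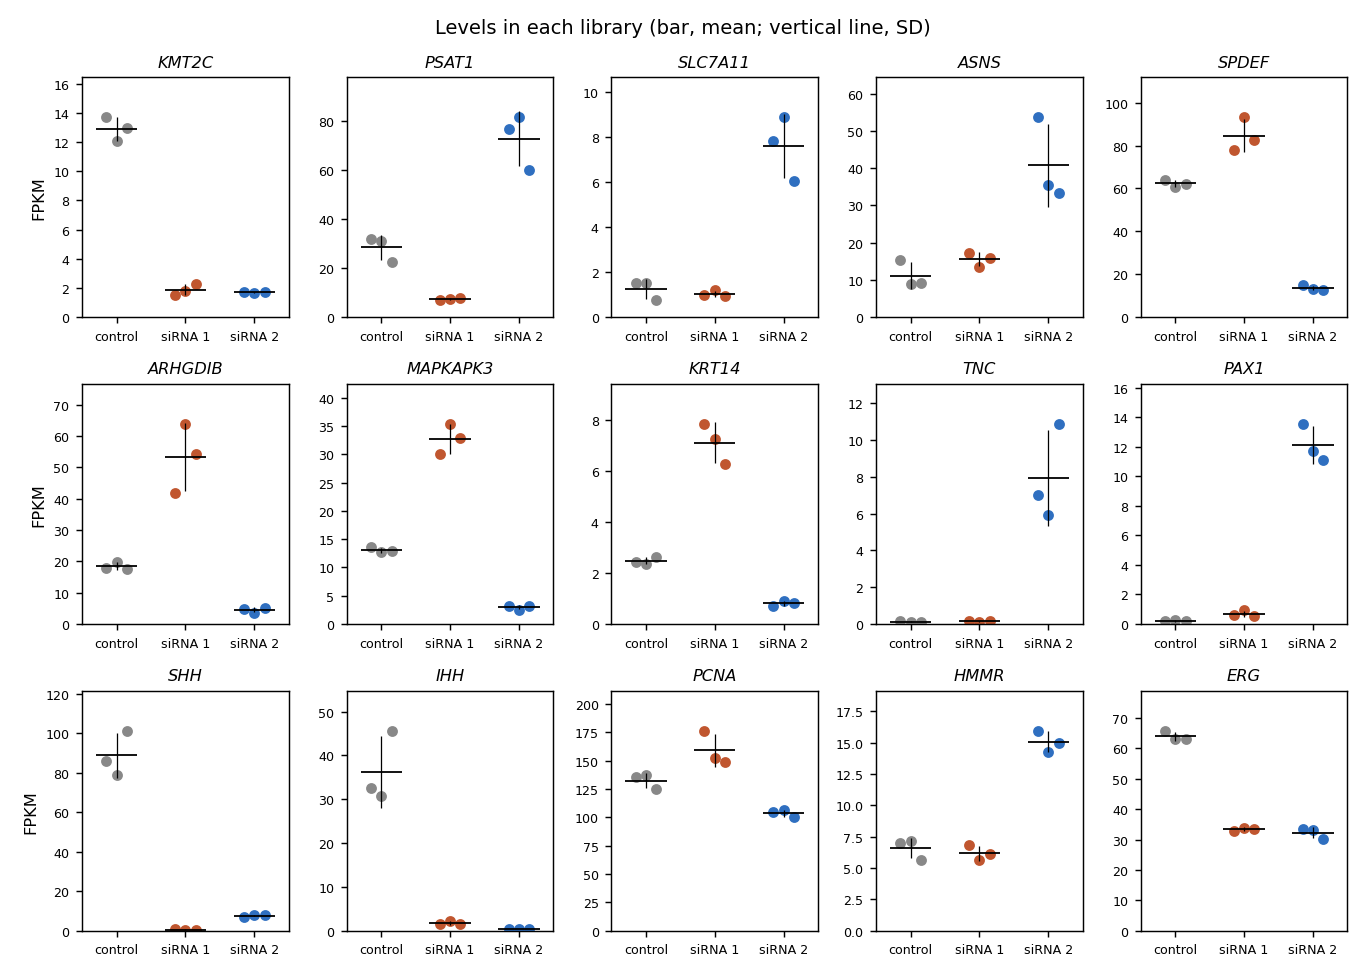
FPKM of 15 genes in each of the 9 libraries (points), by control siRNA, siRNA 1 and siRNA 2 on the horizontal axis, with the mean (bar) and SD (vertical line) of each group; the vertical axes start at 0. KMT2C overlaps between the knockdown groups, while PSAT1, SPDEF, MAPKAPK3 and TNC separate them without overlap.

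Among lists with more than 5 tested members, the one with the highest share called was the integrated stress response with amino acid synthesis and uptake (88.5%, against 39.5% of all genes). In this pathway, phosphorylation of the initiation factor eIF2 favours translation of the transcription factor ATF4, whose targets supply serine, asparagine, cysteine and other amino acids and their transporters. Of its 26 tested members (29 listed), 20 were higher with siRNA 2 and 3 with siRNA 1, against 18.9% and 20.6% of all genes, with a median log2 difference of -0.82. Against control siRNA the median of the same members was -0.01 with siRNA 1 (4 called higher, 4 lower) and 0.81 with siRNA 2 (21 higher, 0 lower). With a test against a 1.5-fold change, 11 were higher with siRNA 2 and 0 with siRNA 1.

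PSAT1 (chr9:78297125-78330093), which makes the precursor of serine, had the smallest adjusted p of the list. It read 7.17, 7.3 and 7.65 FPKM with siRNA 1, 76.7, 81.3 and 60 FPKM with siRNA 2 and 31.6, 31.1 and 22.6 FPKM with control siRNA. The 3 groups did not overlap, the controls lay between the siRNAs, and the log2 difference was -3.27 ± 0.16 (edgeR adjusted p = 3.39e-06). PHGDH, the enzyme 1 step upstream, read 7.91, 7.08 and 7.69 FPKM with siRNA 1 and 13.6, 14.4 and 13.6 FPKM with siRNA 2, with controls at 10.7, 10.7 and 9.05 FPKM (-0.84 ± 0.08 log2, adjusted p = 7.49e-05). SLC7A11, the cystine importer, read 0.975, 1.19 and 0.964 FPKM with siRNA 1 and 7.84, 8.88 and 6.05 FPKM with siRNA 2, where control siRNA gave 1.5, 1.53 and 0.752 FPKM. Here siRNA 1 and control overlapped and siRNA 2 stood apart (-2.83 ± 0.27 log2, edgeR adjusted p = 8.33e-05). CBS, which directs homocysteine towards cysteine, differed by -0.8 ± 0.06 (adjusted p = 2.8e-05), and VLDLR, a lipoprotein receptor, by -1.11 ± 0.07 (adjusted p = 1.25e-05).

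Further members were picked after their values were seen. ASNS, asparagine synthetase, stood at 17.3, 13.5 and 16 FPKM with siRNA 1, 53.7, 35.5 and 33.3 FPKM with siRNA 2 and 15.3, 8.94 and 9.31 FPKM with control siRNA. Its log2 difference was -1.36 ± 0.25 (edgeR adjusted p = 0.00259), although siRNA 2 replicate 1 was well above the other two. CHAC1, a glutathione-degrading enzyme, read 0.601, 0.962 and 0.46 FPKM with siRNA 1 and 6.03, 7.5 and 4.47 FPKM with siRNA 2. Its controls read 4.48, 2.86 and 1.57 FPKM, and against them CHAC1 was called lower with siRNA 1 and not called with siRNA 2. GDF15, a stress-induced hormone, differed by -1.59 ± 0.17. The transcription factors CEBPB (-1.21 ± 0.14 log2) and CEBPG (-0.68 ± 0.09) and the mitochondrial folate enzyme MTHFD2 (-1.25 ± 0.13) had the same direction. ATF4 itself was uneven with siRNA 2 (46.2, 25.8 and 21.7 FPKM, against 15.1, 13.8 and 13.8 FPKM with siRNA 1) and its call (edgeR adjusted p = 0.0299) was lost when any siRNA 1 library or siRNA 2 replicate 1 was left out (adjusted p = 0.0639 to 0.0985). TRIB3, an inhibitor that feeds back on ATF4, was among the 3 members that were higher with siRNA 1, at 14.6, 16.1 and 14.7 FPKM against 11, 11.7 and 9.63 FPKM (0.52 ± 0.09 log2), as was the glutamine transporter SLC1A5 (0.5 ± 0.1).

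The aminoacyl-tRNA synthetases, which load transfer RNAs with amino acids, leaned the same way. Of the 34 tested, 16 were higher with siRNA 2 and 6 with siRNA 1, or 64.7% called beside 39.5% of all genes. The median log2 difference was -0.11, and the counts were 4 and 1 against a 1.5-fold change. CARS1, the cytosolic cysteine enzyme, read 2.97, 3.02 and 2.84 FPKM with siRNA 1, 8.8, 9.63 and 7.63 FPKM with siRNA 2 and 3.38, 3.48 and 2.91 FPKM with control siRNA, so siRNA 2 alone stood apart (-1.53 ± 0.1 log2, edgeR adjusted p = 1.13e-05). EPRS1, which charges both glutamate and proline transfer RNAs, read 32.8, 34.8 and 33.8 FPKM with siRNA 1 and 70.1, 70 and 61.4 FPKM with siRNA 2 (-0.96 ± 0.08 log2). In mitochondrial enzymes the order differed from gene to gene. LARS2, for leucine, was low with siRNA 1 (1.24, 1.1 and 1.59 FPKM) and close to control with siRNA 2 (4.07, 4.04 and 4.23 against 4.86, 4.54 and 4.88 FPKM), whereas WARS2, for tryptophan, was low with siRNA 2 (2.09, 1.99 and 2.17 FPKM) and near control with siRNA 1 (5.62, 5.73 and 6.28 against 4.65, 4.7 and 4.77 FPKM).

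Promoters of these members were searched for a motif of the ATF4 type. The motif searched was TGATGNAA, on both strands, in the 250 bases before the start of each gene in the RefSeq promoter table (GRCh38.p14), and it was chosen after the values of the list were seen. It was present for 4 of the 22 members of the stress response list that had a promoter in the table (18.2%), for 4 of 27 synthetases (14.8%) and for 1061 of all 27305 promoters (3.89%). The promoters of ASNS (chr7:97872409-97872528, minus strand) and CEBPG (chr19:33373993-33374112, plus strand) are shown because both carry the motif and both genes were higher with siRNA 2. Each line gives the 120 bases before the start, 5′ to 3′ on the gene's strand, with the motif in capitals. A match is a description of letters and not evidence of binding.
ASNS: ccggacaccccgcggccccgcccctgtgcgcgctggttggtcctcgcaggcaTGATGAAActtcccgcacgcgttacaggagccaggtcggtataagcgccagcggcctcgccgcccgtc
CEBPG: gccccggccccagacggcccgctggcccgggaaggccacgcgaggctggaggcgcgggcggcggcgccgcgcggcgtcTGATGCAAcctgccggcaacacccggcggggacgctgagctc

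Chaperones of the endoplasmic reticulum and the unfolded protein response, which handle misfolded secretory proteins, were less uniform. Of 26 tested members, 10 were higher with siRNA 2 and 4 with siRNA 1, or 53.8% called beside 39.5% of all genes. The median log2 difference was -0.20. The count of 10 fell to 6 without the filter on low values, with edgeR's own filter, or without siRNA 1 replicate 3, siRNA 2 replicate 1 or siRNA 2 replicate 3, and the counts were 3 and 2 against a 1.5-fold change. HERPUD1, part of the machinery that degrades misfolded proteins, read 3.89, 3.31 and 3.44 FPKM with siRNA 1, 9.34, 9.64 and 10.2 FPKM with siRNA 2 and 6.87, 7.5 and 6.53 FPKM with control siRNA, with no overlap among the 3 groups (-1.42 ± 0.09 log2, edgeR adjusted p = 1.18e-05). DNAJC3, which restrains the eIF2 kinase PERK, showed the same order (-1.23 ± 0.1 log2), and so did the chaperone HYOU1 (-0.92 ± 0.09). CREB3L4, a membrane-bound transcription factor of prostate secretory cells, went the other way, at 24, 21.6 and 20.2 FPKM with siRNA 1 and 8.98, 7.53 and 6.68 FPKM with siRNA 2 (1.53 ± 0.13 log2). Without siRNA 1 replicate 3, the 4 genes higher with siRNA 1 became 2.

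Cholesterol synthesis was lower with siRNA 1. Its enzymes turn acetyl-CoA into mevalonate, squalene and finally cholesterol, and are switched on together by SREBP2. Of 21 tested members, 14 were higher with siRNA 2 and 1, PMVK, with siRNA 1, or 71.4% called beside 39.5% of all genes. The median log2 difference was -0.70, and 8 and 0 passed against a 1.5-fold change. Against control siRNA the median was -1.07 with siRNA 1 (17 called lower, 1 higher) and -0.43 with siRNA 2 (14 lower, 3 higher). SQLE, squalene epoxidase, read 26.2, 22.9 and 25.7 FPKM with siRNA 1, 50.8, 50.2 and 53.8 FPKM with siRNA 2 and 50.7, 50.8 and 53 FPKM with control siRNA. Only the siRNA 1 libraries stood apart (-1.02 ± 0.07 log2, edgeR adjusted p = 1.44e-05). MSMO1, a sterol demethylase, was lower than control with both, at 16.6, 16.2 and 17.5 FPKM with siRNA 1 and 30, 29.1 and 29.1 FPKM with siRNA 2 against 69.5, 72.1 and 78 FPKM (-0.78 ± 0.07 log2 between the siRNAs). MVK, mevalonate kinase, differed by -0.87 ± 0.07 (adjusted p = 2.2e-05) and FDFT1, squalene synthase, by -0.85 ± 0.07 (adjusted p = 4.99e-05). PMVK, which follows MVK in the pathway, stood at 121, 98.4 and 89.8 FPKM with siRNA 1 and 79.5, 80.4 and 74.4 FPKM with siRNA 2, and lost its call without siRNA 2 replicate 3 (adjusted p = 0.0521).

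The genes of sterol uptake, export and control split, 6 higher with siRNA 1 and 5 with siRNA 2 of 15 tested (median 0.49). Of the 15, 73.3% were called, beside 39.5% of all genes. The 5 became 3 without siRNA 1 replicate 2 or siRNA 2 replicate 1, and 1 and 1 passed against a 1.5-fold change. ABCG1, an exporter of cholesterol, read 2.02, 2.55 and 2.48 FPKM with siRNA 1 and 0.562, 0.447 and 0.467 FPKM with siRNA 2, with controls at 1.29, 1.4 and 1.87 FPKM between them (2.28 ± 0.18 log2, edgeR adjusted p = 3.2e-05). NR1H2, which encodes the oxysterol receptor LXR beta that drives ABCG1, differed by 0.81 ± 0.1, and SCAP, the escort of SREBP proteins, by 0.55 ± 0.05. STARD4, a sterol carrier, was higher with siRNA 2 (2.89, 3.41 and 3.05 against 1.13, 1.1 and 1.19 FPKM; -1.42 ± 0.12 log2).

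The cell cycle lists differed in direction. Genes of DNA replication were higher with siRNA 1: 28 of 45 tested were called that way and 4 the other way, with a median log2 difference of 0.39. Genes of mitosis were higher with siRNA 2: 24 of 44 against 5, with a median of -0.26. Shares called were 71.1% for replication and 65.9% for mitosis, beside 39.5% of all genes. Against control siRNA, replication genes had medians of 0.15 with siRNA 1 (12 called higher, 2 lower) and -0.17 with siRNA 2 (4 higher, 18 lower), and mitosis genes had medians of -0.08 (6 higher, 13 lower) and 0.11 (15 higher, 4 lower). In bulk RNA, fewer cells in a phase and less RNA per cell cannot be told apart. The differences were small: against a 1.5-fold change 5 replication genes were higher with siRNA 1 and 0 with siRNA 2, and for mitosis 2 were higher with siRNA 2 and 1 with siRNA 1. Without the filter on low values the mitosis count of 24 fell to 15.

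TYMS, which makes thymidylate for DNA, read 28.3, 26.1 and 25.2 FPKM with siRNA 1, 15, 14.5 and 13.5 FPKM with siRNA 2 and 16.5, 17.1 and 13.9 FPKM with control siRNA, a log2 difference of 0.92 ± 0.09 (edgeR adjusted p = 0.000114). CDC6, which loads the replicative helicase, stood at 15.7, 12.8 and 15.6 FPKM with siRNA 1 and 8.08, 7.16 and 7.37 FPKM with siRNA 2, with controls at 12.1, 10.7 and 9.49 FPKM between them. GINS3, a helicase subunit, differed by 0.96 ± 0.11, and CHAF1B, which assembles histones behind the fork, by 0.64 ± 0.07. PCNA, the sliding clamp, chosen after its values were seen, read 176, 152 and 149 FPKM with siRNA 1, 105, 107 and 101 FPKM with siRNA 2 and 136, 137 and 125 FPKM with control siRNA. The 3 groups did not overlap, with the controls between the siRNAs (0.65 ± 0.08 log2, edgeR adjusted p = 0.000315). PRIM1, the primase subunit, was among the 4 that went the other way (-0.84 ± 0.12 log2).

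Among mitotic genes, HMMR, a spindle protein, read 6.81, 5.62 and 6.11 FPKM with siRNA 1, 15.9, 14.3 and 15 FPKM with siRNA 2 and 6.99, 7.16 and 5.68 FPKM with control siRNA. Its siRNA 1 and control libraries overlapped and siRNA 2 stood apart (-1.25 ± 0.11 log2, edgeR adjusted p = 6.06e-05). KIF2C, a kinesin that corrects microtubule attachment, stood at 17.4, 15.8 and 16.8 FPKM with siRNA 1 and 33.2, 32.8 and 36.4 FPKM with siRNA 2, on either side of the controls (25, 25.5 and 23.9 FPKM; -1.0 ± 0.07 log2). The checkpoint kinase BUB1 differed by -0.73 ± 0.07 and the kinetochore protein CENPF by -0.57 ± 0.06. The 5 members higher with siRNA 1 included the proliferation marker MKI67 (36.2, 42.6 and 47.9 against 19.2, 25.6 and 18.3 FPKM), the transcription factor FOXM1 (0.94 ± 0.17 log2) and the phosphatase CDC25B (1.0 ± 0.14), all 3 chosen after their values were seen.

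The promoters of the 2 lists differed in letters. The E2F-type motif, TTTCCCGC or TTTGGCGC, was found on either strand within 250 bases before the start for 12 of 38 replication genes with a promoter in the table (31.6%), for 3 of 37 mitosis genes (8.11%) and for 645 of all 27305 promoters (2.36%). The CHR motif, TTTGAA, was found for 1 of 38 replication genes (2.63%), for 20 of 37 mitosis genes (54.1%) and for 4383 of all promoters (16.1%). Both motifs were chosen after the list values were seen, and no test was made. As examples, PCNA (chr20:5126623-5126742, minus strand) and MCM6 (chr2:135876444-135876563, minus strand), higher with siRNA 1, carry the E2F-type letters, and CCNB2 (chr15:59105026-59105145, plus strand) and HMMR (chr5:163460512-163460631, plus strand), higher with siRNA 2, carry the CHR letters. MCM6 is a helicase subunit (0.48 ± 0.06 log2) and CCNB2 a mitotic cyclin (-0.39 ± 0.07); both were chosen after their values were seen. The lines give the 120 bases before the start, 5′ to 3′ on the gene's strand, from RefSeq GRCh38.p14, with matches in capitals.
PCNA: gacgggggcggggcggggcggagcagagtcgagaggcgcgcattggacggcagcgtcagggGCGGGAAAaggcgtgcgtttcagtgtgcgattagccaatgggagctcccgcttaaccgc
MCM6: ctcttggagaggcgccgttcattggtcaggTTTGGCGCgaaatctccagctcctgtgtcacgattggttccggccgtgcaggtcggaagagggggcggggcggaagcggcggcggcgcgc
CCNB2: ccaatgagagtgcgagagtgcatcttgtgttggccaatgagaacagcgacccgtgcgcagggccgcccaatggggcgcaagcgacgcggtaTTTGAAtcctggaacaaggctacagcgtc
HMMR: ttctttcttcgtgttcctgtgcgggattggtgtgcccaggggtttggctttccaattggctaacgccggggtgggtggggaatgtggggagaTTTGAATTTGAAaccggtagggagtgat

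Inhibitors and activators of the G1 phase also separated the siRNAs. Of 19 tested members, 9 were higher with siRNA 1 and 3 with siRNA 2 (median 0.31). Of the list 63.2% was called, beside 39.5% of all genes, and 5 and 2 passed against a 1.5-fold change. CDKN2D, the p19 inhibitor of CDK4 and CDK6, read 11.6, 10.8 and 8.34 FPKM with siRNA 1, 2.49, 2.16 and 2.08 FPKM with siRNA 2 and 16.4, 16.7 and 13.6 FPKM with control siRNA, with no overlap (2.22 ± 0.16 log2, edgeR adjusted p = 1.51e-05). CDKN1A, the p21 inhibitor and a p53 target, showed the same order: 24.6, 29.3 and 21.1 FPKM, 9.25, 9.66 and 6.34 FPKM and, with control siRNA, 32.3, 33 and 31.4 FPKM (1.6 ± 0.17 log2). Other inhibitors were lower with siRNA 1. CDKN2B (p15) stood at 0.279, 0.142 and 0.203 FPKM with siRNA 1, 1.63, 1.94 and 1.38 FPKM with siRNA 2 and 1.75, 1.23 and 1.47 FPKM with control siRNA (-2.92 ± 0.27 log2), and CDKN1C (p57) differed by -2.49 ± 0.23. E2F2, an activating E2F, read 7.17, 7.35 and 7.62 FPKM with siRNA 1, level with the controls (7.41, 7.25 and 7.33 FPKM), and 3.69, 3.91 and 3.24 FPKM with siRNA 2 (1.06 ± 0.08 log2, edgeR adjusted p = 2.02e-05).

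In homologous recombination and the Fanconi pathway, which repair broken and crosslinked DNA, 9 of 32 tested members were higher with siRNA 1 and 1 with siRNA 2 (median 0.16), a total of 31.2% called against 39.5% of all genes. RAD54L, a recombination motor, read 6.06, 6.54 and 6.44 FPKM with siRNA 1, close to control (6.05, 5.72 and 5.74 FPKM), and 2.73, 3.35 and 2.94 FPKM with siRNA 2 (1.11 ± 0.09 log2, edgeR adjusted p = 2.79e-05). The exonuclease EXO1 differed by 1.0 ± 0.09. The kinase ATM was the 1 member higher with siRNA 2, at 2.48, 2.42 and 2.59 FPKM against 1.07, 1.4 and 1.54 FPKM with siRNA 1 (-0.87 ± 0.14 log2). Against a 1.5-fold change, 2 and 0 passed, and 2 members were higher with siRNA 2 without siRNA 1 replicate 1 or control replicate 2.

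Replication-dependent histone transcripts, which normally lack a poly(A) tail and are made in S phase, were higher with siRNA 2. Of 29 tested (60 symbols in the table), 17 were higher with siRNA 2 and 1, H2BC9, with siRNA 1. These made 62.1% called, beside 39.5% of all genes, with a median log2 difference of -0.87 over the list. Against control siRNA the median was -0.22 with siRNA 1 (0 called higher, 8 lower) and 0.83 with siRNA 2 (16 higher, 1 lower). H2AC11 read 0.52, 0.47 and 0.634 FPKM with siRNA 1, 2.13, 2.31 and 2.81 FPKM with siRNA 2 and 1.4, 1.01 and 0.958 FPKM with control siRNA, without overlap (-2.12 ± 0.21 log2, edgeR adjusted p = 9.84e-05). H2AC18 and H2AC19 gave nearly the same values: H2AC18 read 5.13, 5.48 and 5.28 FPKM with siRNA 1 and 19.7, 16.8 and 16.5 FPKM with siRNA 2, and H2AC19 read 5.12, 5.37 and 5.41 FPKM and 19.2, 16.7 and 16.5 FPKM. They are close copies, so their reads cannot be told apart. H3C10 differed by -1.64 ± 0.15 and H2BC21 by -1.62 ± 0.12. Without control replicate 1, 2 members were higher with siRNA 1. As a share of all counts these transcripts took 0.0101% ± 0.0007 with siRNA 1, 0.0199% ± 0.0012 with siRNA 2 and 0.0123% ± 0.0005 with control siRNA (SD, n = 3 each). The labels do not say how the RNA was selected before sequencing, and its part in these values was not tested.

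Transcripts of the mitochondrial genome were higher with siRNA 2 for 10 of 13 messenger RNAs, and none was higher with siRNA 1 (median -0.37). This was 76.9% called, beside 39.5% of all genes. The 10 fell to 6 without the filter on low values or without siRNA 1 replicate 2, and to 1 against a 1.5-fold change. MT-ND1, a complex I subunit, read 4033, 4667 and 4688 FPKM with siRNA 1, 7974, 8187 and 8194 FPKM with siRNA 2 and 5612, 6469 and 5626 FPKM with control siRNA, without overlap (-0.83 ± 0.08 log2, edgeR adjusted p = 8.33e-05). MT-ND2 (-0.65 ± 0.09 log2), MT-ND6 (-0.58 ± 0.08), which lies on the other strand, and the oxidase subunit MT-CO1 (-0.44 ± 0.09) were called in the same direction.

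The mitochondrial transfer RNAs held the largest fitted difference in favour of siRNA 1. MT-TC (cysteine) had 29021 counts over the 3 siRNA 1 libraries, 6 over the 3 siRNA 2 libraries and 41001 over the 3 controls, a ratio of 4.93e+03 between the siRNAs with a counting interval from 1.02e+03 to 3.06e+04. It abuts MT-TY (tyrosine) on the same strand, with 1 shared base, and MT-TY had 24875, 67087 and 33457 counts in the same order. Summed, the pair had 53896 counts with siRNA 1, 67093 with siRNA 2 and 74458 with control siRNA. The sum thus differed far less than either member; whether reads of the pair were assigned differently between libraries was not tested. MT-TH and MT-TS2, also neighbours, were higher with siRNA 1 (1.12 ± 0.08 and 1.05 ± 0.09 log2), and MT-TL1 and MT-TA higher with siRNA 2 (-1.12 ± 0.11 and -1.06 ± 0.16).

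Ribosomal proteins leaned towards siRNA 1. Of 81 tested cytosolic ribosomal protein genes, 39 were higher with siRNA 1 and 1 with siRNA 2, with a median log2 difference of 0.29. Together 49.4% were called, beside 39.5% of all genes. The count of 39 was 25 with upper quartile scaling, 25 in a fit of the 6 libraries alone, 23 without siRNA 2 replicate 1, 25 without siRNA 2 replicate 2 and 25 without siRNA 2 replicate 3, and 0 passed against a 1.5-fold change. The 1 higher with siRNA 2 became 2 without siRNA 1 replicate 1 and 0 without siRNA 1 replicate 3, siRNA 2 replicate 2, control replicate 1 or control replicate 2. Against control siRNA the medians were 0.43 with siRNA 1 (61 called higher, 0 lower) and 0.15 with siRNA 2 (23 higher, 2 lower). RPL23A read 1780, 1580 and 1528 FPKM with siRNA 1, 1043, 1037 and 1084 FPKM with siRNA 2 and 1009, 998 and 984 FPKM with control siRNA (0.66 ± 0.07 log2, edgeR adjusted p = 0.00014). RPS28 differed by 0.56 ± 0.07 and RPL36 by 0.55 ± 0.08. Many of these genes have processed pseudogenes, with which they may share reads.

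For mitochondrial ribosomal proteins, 18 of 77 were higher with siRNA 1 and 5 with siRNA 2 (median 0.17), or 29.9% called against 39.5% of all genes, and the count of 18 became 9 without siRNA 2 replicate 1 and 10 without siRNA 2 replicate 2. The count of 5 ran from 2 to 8 across the alternatives other than the 1.5-fold test, with 2 without siRNA 1 replicate 3 or siRNA 2 replicate 2. Ribosome biogenesis factors gave 10 and 2 of 36 (median 0.13, 33.3% called), and the 2 became 0 or 1 without any 1 of siRNA 1 replicate 2, siRNA 1 replicate 3 or the siRNA 2 libraries. None of either list passed against a 1.5-fold change. NOLC1, a nucleolar chaperone, was above control with both siRNAs, at 81.8, 79.3 and 75.1 FPKM with siRNA 1 and 59.2, 57.5 and 56.8 FPKM with siRNA 2 against 19.7, 19.6 and 19.5 FPKM (0.48 ± 0.05 log2 between the siRNAs).

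**Figure D3:**
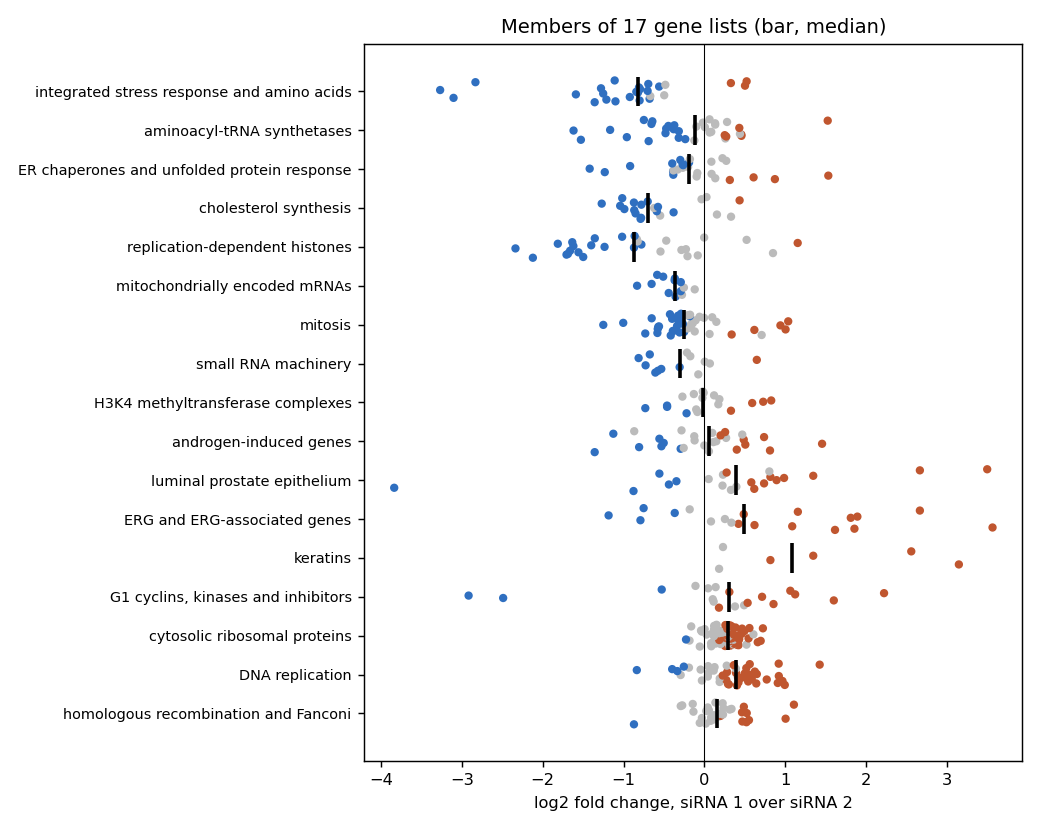
Each point is 1 tested member of a gene list, placed by its log2 fold change of siRNA 1 over siRNA 2 (horizontal axis) and coloured when called (orange higher with siRNA 1, blue higher with siRNA 2, grey not called); the black bar is the list's median. The integrated stress response, histone and cholesterol lists have medians of -0.82, -0.87 and -0.70, and the DNA replication and ERG lists medians of 0.39 and 0.49.

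Genes tied to the ERG fusion separated the siRNAs while ERG itself was not called. ERG, an ETS transcription factor that the fusion places under androgen control, chosen after its values were seen, read 32.8, 33.9 and 33.6 FPKM with siRNA 1, 33.4, 33.3 and 30.2 FPKM with siRNA 2 and 65.7, 63 and 63.1 FPKM with control siRNA. The siRNA groups overlapped, with a log2 difference of 0.08 ± 0.05 (edgeR adjusted p = 0.26). Of the 19 tested members of the ERG list, 11 were higher with siRNA 1 and 4 with siRNA 2, or 78.9% called against 39.5% of all genes, with a median of 0.49. Against control siRNA the median was 0.26 with siRNA 1 (9 called higher, 7 lower) and -0.59 with siRNA 2 (3 higher, 12 lower).

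SPDEF (chr6:34537802-34556333), an ETS factor of secretory luminal cells, read 77.9, 93.1 and 82.8 FPKM with siRNA 1, 14.9, 13.1 and 12.9 FPKM with siRNA 2 and 63.9, 60.9 and 62.3 FPKM with control siRNA. The siRNA 1 libraries lay a little above the controls (0.41 log2) and the siRNA 2 libraries far below (-2.25), and the direct difference was 2.66 ± 0.08 (edgeR adjusted p = 7.78e-07). AMACR, a racemase of branched fatty acids used as a prostate cancer marker, stood at 25.1, 26.2 and 28.9 FPKM with siRNA 1, 7.66, 7.53 and 7.43 FPKM with siRNA 2 and 30.4, 30.1 and 33.6 FPKM with control siRNA (1.85 ± 0.07 log2, adjusted p = 1.56e-06). KCNS3, a modulatory potassium channel subunit, read 11.1, 12.6 and 11.6 FPKM with siRNA 1 against 3.14, 3.46 and 3.11 FPKM with siRNA 2, with controls between (4.48, 4.45 and 5.17 FPKM; 1.89 ± 0.1 log2). LEF1, a Wnt pathway transcription factor, had the reverse order, at 7.18, 7.79 and 8.15 FPKM with siRNA 1, 18.3, 18.2 and 17.3 FPKM with siRNA 2 and 15.4, 15.8 and 15.2 FPKM with control siRNA (-1.19 ± 0.06 log2, adjusted p = 3.98e-06). Against a 1.5-fold change the count higher with siRNA 2 was 2.

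Genes of the luminal prostate epithelium, which secretes prostatic fluid, were higher with siRNA 1 for 10 of 21 and with siRNA 2 for 5. The median was 0.39, and 71.4% were called beside 39.5% of all genes. Against a 1.5-fold change, 5 and 1 passed. HOXB13, a prostate homeobox factor, stood at 164, 191 and 166 FPKM with siRNA 1 and 88.8, 88.7 and 91 FPKM with siRNA 2, where control siRNA gave 191, 177 and 216 FPKM. Its siRNA 2 libraries alone were lower (0.98 ± 0.09 log2). GATA2, a zinc finger transcription factor, was below control with both siRNAs and lower with siRNA 2, at 80.4, 74.5 and 72.3 FPKM with siRNA 1, 40.9, 41.2 and 42.9 FPKM with siRNA 2 and 124, 126 and 144 FPKM with control siRNA (0.89 ± 0.08 log2). ACP3, prostatic acid phosphatase, had the other order, at 52.6, 61.7 and 53.7 FPKM with siRNA 1, 101, 114 and 99.7 FPKM with siRNA 2 and 157, 155 and 145 FPKM with control siRNA (-0.88 ± 0.08 log2).

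Targets of androgen signalling did not share 1 direction. Of 27 tested androgen-induced genes, 8 were higher with siRNA 1 and 7 with siRNA 2 (median 0.06). In total 55.6% were called, beside 39.5% of all genes, and 2 and 3 passed against a 1.5-fold change. Of 13 androgen-repressed genes, 3 were higher with each siRNA (46.2% called, near the 39.5% of all genes; 1 and 2 against a 1.5-fold change).

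TMPRSS2, a membrane serine protease whose promoter drives ERG in the fusion, was below control with both, at 19.5, 19.8 and 18.5 FPKM with siRNA 1 and 43.2, 43.3 and 42.5 FPKM with siRNA 2 against 94.4, 96.7 and 98.1 FPKM (-1.13 ± 0.05 log2, edgeR adjusted p = 2.52e-06). The transporter ABCC4 read 6.81, 7.76 and 8.49 FPKM with siRNA 1 and 20.4, 19.4 and 20.5 FPKM with siRNA 2, on either side of control (15.2, 14.5 and 15.4 FPKM). The kallikrein KLK3, which encodes prostate-specific antigen, had the reverse order and was chosen after its values were seen, at 9.94, 7.97 and 9.4 FPKM with siRNA 1, 2.75, 3.89 and 3.53 FPKM with siRNA 2 and 55.8, 62.2 and 88.7 FPKM with control siRNA (1.45 ± 0.2 log2, edgeR adjusted p = 0.000598). C1orf116, another androgen-induced gene, differed by 0.81 ± 0.07. AKR1C3, which reduces steroid precursors to active androgens and is on the repressed list, read 12.9, 10.9 and 12.6 FPKM with siRNA 1, 2.54, 2.55 and 2.94 FPKM with siRNA 2 and 24.1, 22.1 and 33.5 FPKM with control siRNA (2.21 ± 0.17 log2). UGT2B11, of the family that inactivates androgens, read 1.89, 2.11 and 2.27 FPKM with siRNA 1 and 6.32, 6.38 and 4.93 FPKM with siRNA 2, both above control (1.16, 1.09 and 0.904 FPKM; -1.46 ± 0.15 log2).

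All 12 luminal marker genes listed for the cell type check passed the filter, and their summed level was 1034 to 1065 FPKM with siRNA 1, 1054 to 1089 with siRNA 2 and 1959 to 2053 with control siRNA, so the summed level overlapped between the 2 KMT2C siRNAs. Markers of basal cells summed to 8.93 to 9.76 FPKM with siRNA 1 and 3.99 to 4.20 with siRNA 2 and rested on KRT14, described with the keratins. DST, the other basal marker tested, read 1.81, 2.37 and 2.61 FPKM with siRNA 1 and 3.14, 3.23 and 3.06 FPKM with siRNA 2, the other way (-0.44 ± 0.11 log2, edgeR adjusted p = 0.0141), and the defining basal genes TP63 and KRT5 were at or near 0. Fibroblast and smooth muscle markers summed to 3.06 to 4.70 FPKM with siRNA 1 and 8.97 to 15.3 with siRNA 2, a difference carried by LUM. ACTA2, the other fibroblast marker tested, was not called (edgeR adjusted p = 0.108), and DCN and COL1A2 were near 0. Leukocyte markers stayed at or below 2.56 FPKM, with CD3E and MS4A1 at 0 in every library, and endothelial markers summed to at most 0.361 FPKM. Neuroendocrine markers summed to 3.67 to 4.58 FPKM with siRNA 1 and 6.69 to 7.15 with siRNA 2.

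Keratins, the filaments of epithelial cells, were higher with siRNA 1 for 4 of the 6 tested and with siRNA 2 for none (median 1.08). With only 6 tested, 66.7% were called, beside 39.5% of all genes. KRT14, a basal keratin, read 7.84, 7.25 and 6.27 FPKM with siRNA 1, 0.719, 0.886 and 0.826 FPKM with siRNA 2 and 2.43, 2.37 and 2.63 FPKM with control siRNA, in 3 groups without overlap (3.15 ± 0.14 log2, edgeR adjusted p = 2.3e-06). KRT19 was below control with both, at 24, 20.3 and 20.9 FPKM with siRNA 1 and 8.29, 8.56 and 9.37 FPKM with siRNA 2 against 35.7, 36 and 57 FPKM (1.35 ± 0.19 log2). KRT18, a luminal keratin, differed by 0.82 ± 0.14 and KRT2 by 2.56 ± 0.55, the latter at under 1 FPKM with both siRNAs.

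Hedgehog ligands differed in opposite directions. Sonic hedgehog, SHH (chr7:155799980-155812463), read 0.766, 0.476 and 0.406 FPKM with siRNA 1, 7.22, 8.13 and 7.87 FPKM with siRNA 2 and 86, 79.1 and 101 FPKM with control siRNA. Both siRNAs lay far below control, and siRNA 2 left 13.7-fold more transcript than siRNA 1 (-3.78 ± 0.23 log2, edgeR adjusted p = 8.16e-06). Indian hedgehog, IHH, had the reverse order, at 1.66, 2.17 and 1.51 FPKM with siRNA 1 and 0.399, 0.338 and 0.479 FPKM with siRNA 2 against 32.5, 30.7 and 45.6 FPKM (2.15 ± 0.22 log2, edgeR adjusted p = 0.000116). SCUBE2, which helps release the ligands from the cell, stood at 2.46, 2.74 and 2.09 FPKM with siRNA 1, 0.472, 0.422 and 0.438 FPKM with siRNA 2 and 29.6, 28.1 and 36.6 FPKM with control siRNA. Of the 8 pathway members tested, 4 were higher with siRNA 1 and 1 with siRNA 2, or 62.5% called beside 39.5% of all genes. SUFU, the inhibitor of GLI factors, was among the 4 (0.55 ± 0.1 log2).

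Because siRNAs use the small RNA machinery and can engage sensors of double-stranded RNA, both groups were counted. Of 13 tested genes of the small RNA machinery, 7 were higher with siRNA 2 and 1 with siRNA 1 (median -0.31). That is 61.5% called, beside 39.5% of all genes, and none of them passed against a 1.5-fold change. TNRC6A, the scaffold that Argonaute recruits, read 3.18, 4.46 and 3.89 FPKM with siRNA 1, 6.37, 7.25 and 7.08 FPKM with siRNA 2 and 6.97, 6.52 and 7.99 FPKM with control siRNA (-0.81 ± 0.12 log2, edgeR adjusted p = 0.00109). AGO2, the Argonaute that cuts targets and chosen after its values were seen, read 9.24, 13.4 and 13.8 FPKM with siRNA 1 and 19, 19.3 and 18.4 FPKM with siRNA 2, where control siRNA gave 12.5, 11.8 and 11.8 FPKM (-0.61 ± 0.13 log2). AGO3 differed by -0.58 ± 0.1 and AGO4 by -0.53 ± 0.07. TARBP2, a partner of DICER1, was the member higher with siRNA 1 (0.65 ± 0.09 log2).

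Of 14 tested interferon-stimulated genes, 5 were higher with siRNA 1 and 2 with siRNA 2 (median 0.09), or 7 of 14 called, beside 39.5% of all genes. The 5 became 10 when genes of low level were let in (no filter, or edgeR's own), and 3 against a 1.5-fold change; the 2 became 1 without siRNA 1 replicate 1 or any siRNA 2 library. OAS3, an enzyme activated by double-stranded RNA, read 9.49, 11 and 10.1 FPKM with siRNA 1, 4.98, 4.81 and 5.04 FPKM with siRNA 2 and 9.33, 9.24 and 9.45 FPKM with control siRNA, so that siRNA 2 alone was lower (1.07 ± 0.06 log2, edgeR adjusted p = 6.53e-06). CMPK2 (1.28 ± 0.14 log2), TRIM21 (1.15 ± 0.22) and DTX3L (0.78 ± 0.09) had the same direction. Among 13 sensors and interferon regulators, 3 were higher with siRNA 1 and 2 with siRNA 2, or 38.5% called, about the 39.5% of all genes, and none passed against a 1.5-fold change. The 3 became 1 without siRNA 1 replicate 3 or siRNA 2 replicate 1, and the 2 became 0 or 1 without siRNA 1 replicate 1, siRNA 1 replicate 2, siRNA 2 replicate 1, siRNA 2 replicate 3, control replicate 1 or control replicate 3. IFIH1 (MDA5) was above control with both, at 2.8, 2.7 and 3.12 FPKM with siRNA 1 and 3.56, 3.56 and 4.11 FPKM with siRNA 2 against 1.7, 1.49 and 1.52 FPKM. Its difference (-0.35 ± 0.1 log2, adjusted p = 0.0233) lost its call without siRNA 1 replicate 1, siRNA 1 replicate 2 or siRNA 2 replicate 3 (adjusted p = 0.0518 to 0.0833). DDX58 (RIG-I) lost its call without siRNA 1 replicate 3 or siRNA 2 replicate 1 (adjusted p = 0.0597 to 0.0623), and STAT2 when any siRNA 2 library, siRNA 1 replicate 2 or siRNA 1 replicate 3 was left out (adjusted p = 0.0533 to 0.0754).

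**Figure D4:**
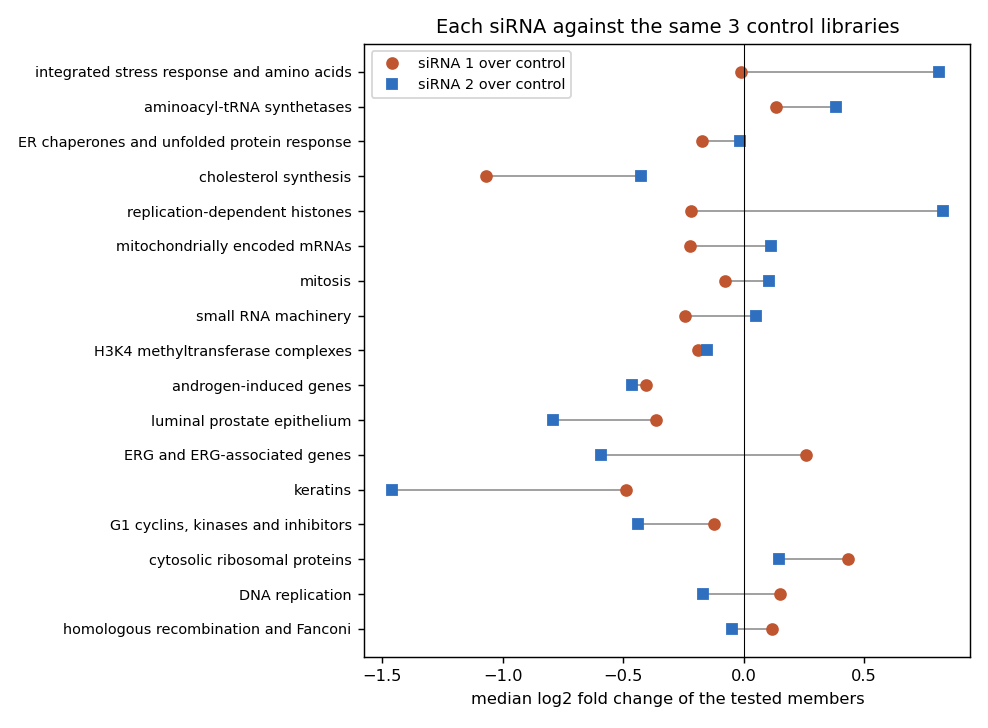
Median log2 fold change of the tested members of each list against the same 3 control libraries, for siRNA 1 (orange circles) and siRNA 2 (blue squares), joined by a line. Both comparisons share their controls; the stress response list lies at -0.01 and 0.81, the ERG list at 0.26 and -0.59, and the cholesterol list at -1.07 and -0.43.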

How the data were processed

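RNA from 9 VCaP libraries (3 control siRNA, 3 KMT2C siRNA 1, 3 KMT2C siRNA 2) was sequenced on an Illumina NovaSeq instrument. The authors deposited 1 table with an expected count and an FPKM value per gene and library, per the file headers. The counts are whole numbers, and totals were 58462215 to 70726213 per library. Among count values from 1 to 20, 4 was the most frequent (11286 values), but 1, 2 and 3 occurred 6621, 5430 and 4677 times. The 4 counts per fragment used for genes near 0 are therefore an assumption. The submitters' processing notes name Bowtie 0.12.2 and the builds mm8 and hg38 with no role; no source used here names the counting tool, its strand setting or how RNA was selected, so reads of overlapping genes on opposite strands cannot be told apart. Gene positions match GRCh38.

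Groups came from the sample titles. The main test was edgeR 4.0.16 (R 4.3.3; quasi-likelihood, TMM scaling) on the deposited counts of all 9 libraries, 1 mean per group, over the 12830 of 60612 genes with at least 1 FPKM in at least 3 libraries, with Benjamini-Hochberg adjustment at 0.05. The standard error is the absolute log2 fold change divided by the square root of F. Single values were compared by exact 2-sided permutation over 20 splits, which cannot give p under 0.1. Scripts were tested on simulated data.

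Named genes were KMT2C and the other members of the histone H3 lysine 4 methyltransferase list. The 12 largest differences each way were named among called genes without overlap and with a mean of at least 2 FPKM in the higher group. Also named were 6 each way called in opposite directions against control, and the 6 most abundant each way that differed at least 2-fold. Up to 4 per list with the smallest adjusted p were added. Clone identifiers were left out. This comparison, the rule and the 60 gene lists were chosen with earlier results of these data known. Alternatives were RLE and upper quartile scaling, scaling without mitochondrial genes, other filters, the 6 libraries alone, a replicate block, DESeq2 1.42.0, limma 3.58.1 on log2(FPKM + 1) and log2(FPKM + 0.1), a test against a 1.5-fold change, counts divided by 4, and leaving out each library. Promoter sequences are from RefSeq (GRCh38.p14). Intervals for MT-TC and the floor of 3 fragments per group, at an assumed 4 counts per fragment, cover counting error only.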

Additional observations from a re-analysis of the deposited data

How the results depend on the processing

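The counts of genes higher with siRNA 1 (2646) and with siRNA 2 (2422) were within 1.5 times of these values under every alternative except the test against a 1.5-fold change, which left 750 and 446. Leaving out 1 library at a time gave 2177 to 2594 genes higher with siRNA 1, 1932 to 2387 higher with siRNA 2, and a KMT2C log2 difference from 0.01 to 0.29, never called. Upper quartile scaling gave 2329 and 2776, a share higher with siRNA 1 of 45.6% against 52.2%, with the median of all genes at -0.046. DESeq2 gave 2864 and 2687. No gene called in the main fit was called with the opposite sign under any alternative. The numbers of the replicates did not pair the samples: deviations of same-numbered libraries correlated at -0.025 to -0.008, and with the replicate number as a block 2494 and 2272 genes were called and KMT2C differed by 0.16. Among named genes, leaving out 1 library ended calls in genes as abundant as CAPNS1 and PMVK, so 3 libraries per group limit those calls.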

Other observations

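Lysosomal genes, whose products break down material taken up by the cell, were higher with siRNA 1 for 13 of 35 tested and with siRNA 2 for 7, or 57.1% called against 39.5% of all genes. The 13 became 8 without siRNA 2 replicate 1 or siRNA 2 replicate 2, and 4 against a 1.5-fold change. The 7 became 3 or 4 without siRNA 1 replicate 2, siRNA 1 replicate 3 or siRNA 2 replicate 1. ATP6V1H, a subunit of the proton pump that acidifies lysosomes, read 7.83, 7.23 and 7.07 FPKM with siRNA 1, 1.94, 1.76 and 1.9 FPKM with siRNA 2 and 8.12, 8.6 and 8.03 FPKM with control siRNA (2.01 ± 0.08 log2, edgeR adjusted p = 1.67e-06). The membrane protein LAMP2 differed by 1.48 ± 0.08 and the protective protein CTSA by 1.55 ± 0.1. Among 22 tested p53 targets, 7 were higher with siRNA 1 and 4 with siRNA 2, or 11 of 22 called, beside 39.5% of all genes. Their log2 differences ran from -1.29 to 1.72, with a median of 0.09, and the activity of p53 itself was not tested. BTG2, an antiproliferative p53 target, read 13.3, 13.3 and 13.3 FPKM with siRNA 1, 3.95, 4.2 and 4.2 FPKM with siRNA 2 and 22.2, 22.4 and 23.4 FPKM with control siRNA, in 3 groups without overlap (1.72 ± 0.06 log2), and MDM2, the ligase that degrades p53, differed by 1.09 ± 0.08.

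Of 26 tested genes of tight junctions and desmosomes, 9 were higher with siRNA 1 and 3 with siRNA 2, or 46.2% called, near the 39.5% of all genes (2 and 0 against a 1.5-fold change). CGN, the junction protein cingulin, stood at 5.94, 5.91 and 6.08 FPKM with siRNA 1, 1.29, 1.19 and 1.15 FPKM with siRNA 2 and 17.4, 17.7 and 20.6 FPKM with control siRNA (2.33 ± 0.09 log2, edgeR adjusted p = 1.28e-06). Integrins, laminins and collagens split evenly, 7 each of 21, or 66.7% called beside 39.5% of all genes. LAMB1 was higher with siRNA 1 (0.86 ± 0.06 log2), and LAMB2 (-0.95 ± 0.08) and COL4A5 (-1.49 ± 0.09) were higher with siRNA 2. Of translation factors 24 of 91 (26.4%) were called, of nuclear subunits of oxidative phosphorylation 24 of 85 (28.2%) and of proteasome subunits 8 of 37 (21.6%), beside 39.5% of all genes; no difference between these shares was tested. Without siRNA 1 replicate 1, the members higher with siRNA 2 became 22 in place of 11 for oxidative phosphorylation and 8 in place of 2 for the proteasome. Within the translation factors, the initiation factor subunits EIF3J (1.02 ± 0.07 log2) and EIF2S3 (0.98 ± 0.07) were higher with siRNA 1. AGMAT, of polyamine metabolism, read 3.69, 3.15 and 3.42 FPKM with siRNA 1 and 0.85, 0.643 and 0.78 FPKM with siRNA 2 (2.2 ± 0.15 log2). AJUBA, a LIM protein of the Hippo pathway, was higher with siRNA 2, at 10.7, 10.6 and 8.12 FPKM against 2.42, 2.5 and 1.92 FPKM (-2.07 ± 0.2 log2). ELOVL2, which lengthens polyunsaturated fatty acids, also was higher with siRNA 2 (-1.59 ± 0.1 log2), while the adhesion molecule ICAM1, a target of NF-kappaB, was higher with siRNA 1 (1.78 ± 0.13).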
